A study of Mus musculus with 14 samples.

Results

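The regions described here are NF-κB p65 peaks that were found with TNFα both in the presence and in the absence of FSK. They were selected on their calls: a p65 peak from FSK/TNFα cells was taken when it overlapped a p65 peak from TNFα cells by at least 1 bp. The rule picked 272 of the 4221 p65 peaks of FSK/TNFα cells (6.44%), and these matched 272 of the 2404 p65 peaks of TNFα cells. They are called repeated peaks below, and the other 3949 peaks of FSK/TNFα cells are called not repeated.

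The cells were 3T3-L1 adipocytes, a mouse preadipocyte line that forms fat cells in culture, after 4 days of differentiation. They were left untreated (control) or exposed for 1 h to FSK (10 µM), an activator of adenylyl cyclase that raises cAMP, to the inflammatory cytokine TNFα, or to both agents at once. Antibodies against p65 were used for ChIP, as were antibodies against the cAMP-regulated coactivator CRTC2 and against H3AcK27, a histone acetylation that marks promoters and enhancers in use. There was 1 library for each of 12 combinations, so a difference between treatments has no replicate check and no p-value is given. Shares carry 95% Wilson intervals over peaks, which cover counting error only.

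The p65 libraries held between 20490261 tags (FSK/TNFα) and 26904732 tags (TNFα), and their lists held between 214 peaks (control) and 4221 peaks (FSK/TNFα). As a check of the cell type, 3 of 7 adipocyte genes (Pparg, Fabp4, and Lpl) had an H3AcK27 region within 1 kb of a start site in control cells, while Adipoq, Plin1, Cebpa, and Cd36 had none. Over all 54327 annotated start sites of protein-coding genes the share was 51.7%, counted per start site and not per gene. The check therefore did not set the adipocyte genes apart from other genes. The peaks describe occupancy and not expression, and a named gene is the one with the protein-coding start site nearest to the peak midpoint, from which distances are counted.

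NF-κB is a family of dimeric transcription factors that is held in the cytoplasm by IκB proteins. TNFα activates the IκB kinase, IκBα is degraded, and dimers with the p65 (RelA) subunit enter the nucleus and bind κB sites. Many early target genes encode inhibitors of the same pathway, and others encode chemokines, cytokines, and acute-phase proteins. In adipose tissue this response is linked to inflammation and insulin resistance.

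Sequences of 101 bp from GRCm38 (mm10, plus strand) are shown for the sites that carry the results. Capitals mark matches to a degenerate κB consensus or to the NF-κB motif named in the study, and each stretch is centered on the match nearest the peak midpoint. The first set belongs to the 12 repeated peaks with the best combined score rank in both lists, of which 10 held a match. Each line gives the nearest gene and the position of the sequence.

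Mdm2 (chr10:117673132-117673232): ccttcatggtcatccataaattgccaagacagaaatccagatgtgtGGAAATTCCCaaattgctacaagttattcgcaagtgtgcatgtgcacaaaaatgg
Gm10306 (chr4:94217920-94218020): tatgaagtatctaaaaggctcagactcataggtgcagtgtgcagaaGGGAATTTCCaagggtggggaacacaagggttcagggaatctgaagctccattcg
Tyrp1 (chr4:79153694-79153794): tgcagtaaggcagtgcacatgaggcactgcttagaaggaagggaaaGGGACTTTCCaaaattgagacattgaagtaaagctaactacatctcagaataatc
Tnfsf15 (chr4:63740864-63740964): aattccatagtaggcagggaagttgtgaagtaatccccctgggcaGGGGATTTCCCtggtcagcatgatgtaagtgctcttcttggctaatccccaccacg
Gdnf (chr15:7838563-7838663): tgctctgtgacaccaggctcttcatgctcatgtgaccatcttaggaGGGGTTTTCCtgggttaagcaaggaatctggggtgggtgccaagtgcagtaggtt
Tmem176b (chr6:48829739-48829839): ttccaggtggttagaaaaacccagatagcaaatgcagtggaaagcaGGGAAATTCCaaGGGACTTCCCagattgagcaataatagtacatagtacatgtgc
Vmn1r39 (chr6:66849044-66849144): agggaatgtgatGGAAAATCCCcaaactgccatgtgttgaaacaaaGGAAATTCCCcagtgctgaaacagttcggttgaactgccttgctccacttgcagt
Cxcl5 (chr5:90706429-90706529): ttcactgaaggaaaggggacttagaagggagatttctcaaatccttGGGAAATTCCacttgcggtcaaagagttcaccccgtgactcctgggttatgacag
Snx18 (chr13:113547929-113548029): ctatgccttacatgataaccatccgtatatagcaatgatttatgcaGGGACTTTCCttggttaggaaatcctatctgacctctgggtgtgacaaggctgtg
Nfkb2 (chr19:46304653-46304753): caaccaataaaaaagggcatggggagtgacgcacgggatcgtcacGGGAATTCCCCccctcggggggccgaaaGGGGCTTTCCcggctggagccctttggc

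The second set belongs to promoters of NF-κB target genes and to the repeated peak nearest to the start sites of Ccl2 and Lif. The promoters of Tnfaip3, Nfkbiz, Cyld, and Lcn2 were added after their values were seen.

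Cxcl1 (chr5:90891128-90891228): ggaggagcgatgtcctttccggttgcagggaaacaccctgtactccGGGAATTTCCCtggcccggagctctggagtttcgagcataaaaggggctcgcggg
Tnfaip3 (chr10:19015480-19015580): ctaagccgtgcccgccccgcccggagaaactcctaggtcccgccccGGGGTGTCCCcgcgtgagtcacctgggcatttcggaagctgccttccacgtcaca
Nfkbiz (chr16:55838814-55838914): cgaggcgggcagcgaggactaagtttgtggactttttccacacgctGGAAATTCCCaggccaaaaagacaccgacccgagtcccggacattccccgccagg
Cyld (chr8:88696827-88696927): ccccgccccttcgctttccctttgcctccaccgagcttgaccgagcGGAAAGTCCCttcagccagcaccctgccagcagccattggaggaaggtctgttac
Lcn2 (chr2:32387944-32388044): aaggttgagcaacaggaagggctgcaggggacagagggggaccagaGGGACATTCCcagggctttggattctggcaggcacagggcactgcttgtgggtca
Ccl2 (chr11:82033171-82033271): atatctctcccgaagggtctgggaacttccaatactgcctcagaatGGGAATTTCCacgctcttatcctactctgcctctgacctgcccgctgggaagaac
Lif (chr11:4299956-4300056): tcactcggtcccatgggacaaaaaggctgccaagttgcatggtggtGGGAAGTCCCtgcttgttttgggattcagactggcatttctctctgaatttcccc

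The third set has no match, so the sequence is centered on the peak midpoint. It belongs to the repeated peak nearest the start site of Nfkbia, the gene for IκBα, and to that nearest the start site of Cxcl5.

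Nfkbia (chr12:55464996-55465096): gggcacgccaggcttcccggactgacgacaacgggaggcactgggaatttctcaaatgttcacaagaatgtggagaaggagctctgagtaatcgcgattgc
Cxcl5 (chr5:90753822-90753922): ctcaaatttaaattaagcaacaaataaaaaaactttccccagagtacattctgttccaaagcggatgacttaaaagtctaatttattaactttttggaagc

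The midpoints of the matched peaks lay close together. Their offset had a median of 36.0 bp, and 253 of 272 pairs (93.0%) were within 100 bp. Only 13 pairs overlapped by less than 50 bp, and the smallest overlap was 1 bp, at the promoter of Nfkbiz. Just outside the rule, peaks near Gadd45a, Batf, and Synpo ended 0 bp to 1 bp short of a TNFα peak, with 10.2, 13.2, and 13.2 normalized tags with FSK/TNFα and 11.5, 20.4, and 26.0 with TNFα. In all, 36 peaks that were not repeated had a TNFα peak ending within 500 bp.

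The level of a peak is its normalized tags, the number of tags scaled to 10000000 tags in the library. Repeated peaks had a median of 15.6 normalized tags with TNFα (range 6.32 to 122) and 21.5 with FSK/TNFα (range 7.81 to 163). Peaks of FSK/TNFα cells that were not repeated had a median of 13.7. These values took part in the choice of the peaks, since a peak with more tags is called more readily in both libraries. Of the 100 best-scored p65 peaks, 65 were repeated with FSK/TNFα and 71 with TNFα, where the score is the authors' count of at most 1 tag per position.

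Within a repeated peak the level with FSK/TNFα was a median of 1.31 times that with TNFα (quartiles 0.968 and 1.82). It was at least 1.5 times higher at 103 peaks (37.9%), at least 1.5 times lower at 16 peaks (5.88%), and between these limits at 153 peaks (56.2%). The highest ratios were near Cebpd (61.0 against 10.8 normalized tags), Fndc3b (45.9 against 8.18), Ybx3 (45.4 against 8.55), and Saa3 (61.0 against 12.3). The lowest were near Ppm1h (12.7 against 29.7), Sike1 (10.7 against 22.7), and Tagln2 (14.2 against 28.2). Fndc3b, Ybx3, Acacb, and the last 3 were named after their values were seen. Unlike the score, normalized tags also count repeated tags at 1 position. Repeated peaks had a median of 4.14 tags per unit of score with FSK/TNFα and 4.13 with TNFα. The contrast can be smaller by score, as near Cebpd, with 25 with FSK/TNFα and 12 with TNFα. Since the lists were called against different inputs and from libraries of different depth, the ratios describe this pair of libraries and were not tested.

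**Figure D1:**
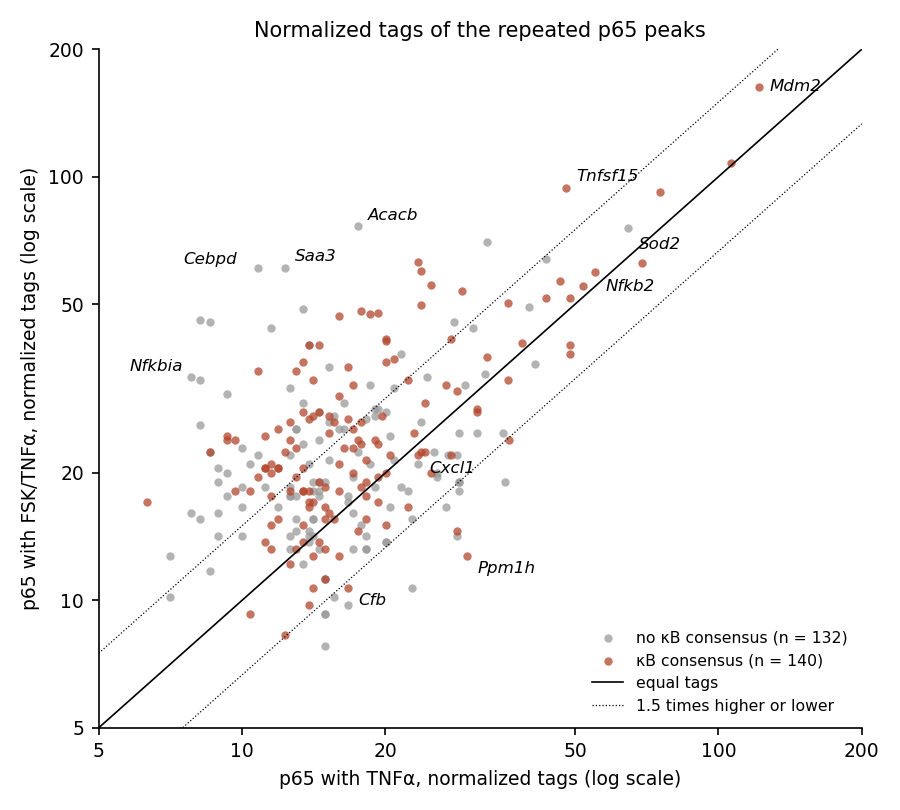
Normalized tags (per 10000000 tags, both axes on a log scale) of the 272 repeated p65 peaks with TNFα (x axis) and with FSK/TNFα (y axis), each point 1 peak, colored by a κB consensus match in 200 bp. Most points lie above the line of equal tags (199 of 272), and Cebpd, with 61.0 against 10.8 normalized tags, stands highest above it.

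The 4 best-ranked peaks near Mdm2, Gm10306, Tyrp1, and Sod2 had 163, 107.9, 92.2, and 75.6 normalized tags with FSK/TNFα and 121.5, 106.3, 75.5, and 64.7 with TNFα. The first 3 lie on chromosomes 10 and 4, and the input carried 17.7, 16.9, and 10.3 tags there on the same scale, compared with a median of 1.47 over repeated peaks. The peak in an intron of Tnfsf15, a TNF family cytokine, also had a high input (9.19 tags) beside 94.2 normalized tags with FSK/TNFα and 47.9 with TNFα. The Mdm2, Tyrp1, and Tnfsf15 peaks lay in no H3AcK27 region. The part of the dense input in the levels at Mdm2, Gm10306, Tyrp1, and Tnfsf15 was not tested. Without chromosomes 4 and 10, 249 peaks were repeated.

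Sod2, which encodes the mitochondrial superoxide dismutase, had its peak in an intron 2.41 kb downstream of the start site (chr17:13010145-13010307) with an input of 2.94 tags. Of the remaining best-ranked peaks, those of Gdnf, Tmem176b, Vmn1r39, Snx18, and Cp lay 2.90 kb to 70.6 kb from the start site. Their levels ranged from 43.5 to 69.1 normalized tags with TNFα and from 51.7 to 63.9 with FSK/TNFα. Cp encodes ceruloplasmin, a copper-binding acute-phase protein. The 12th peak was at the promoter of Nfkb2.

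Repeated peaks were mostly distal. Their midpoints lay a median of 22452 bp from the nearest protein-coding start site, compared with 32458 bp for peaks that were not repeated. Of the 272, 24 (8.82%, interval 6% to 12.8%) overlapped a promoter, which ran from 1000 bp before a start site to 100 bp after it. Among all p65 peaks of FSK/TNFα cells the share was 5.05%, and among those not repeated 4.79% (interval 4.16% to 5.50%). Another 106 repeated peaks (39.0%) were in introns, 139 (51.1%) were intergenic, and 3 were in exons. Among all p65 peaks of FSK/TNFα cells 44.8% were in introns and 47.6% were intergenic.

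The 24 promoter peaks included 4 in genes of the NF-κB pathway itself. At the promoter of Nfkb2, which encodes the p100 precursor of the p52 subunit, the peak 31 bp upstream of the start site (chr19:46304632-46304794) had 55.0 normalized tags with TNFα and 59.5 with FSK/TNFα. A peak was also called there in control cells, with 6.41 normalized tags. The promoter holds a pair of κB matches, as the Nfkb2 sequence in the first set shows.

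At the promoter of Tnfaip3, the gene for the ubiquitin-editing inhibitor A20, the peak 82 bp upstream had 18.2 normalized tags with TNFα and 21.5 with FSK/TNFα. Nfkbiz, which encodes the nuclear inhibitor IκBζ, had 23.0 and 24.9 normalized tags at a peak 75 bp downstream of its start site. Cyld, a deubiquitinase that limits the pathway, had 14.9 and 11.2 normalized tags 60 bp upstream. At these 4 promoters the level with FSK/TNFα was between 0.752 and 1.18 times that with TNFα.

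Promoters of 3 acute-phase and defence genes had larger ratios. Saa3, which encodes serum amyloid A3, had 12.3 normalized tags with TNFα and 61.0 with FSK/TNFα at a peak 128 bp upstream of its start site (chr7:46715747-46715909). Lcn2, the gene for the iron-siderophore carrier lipocalin 2, had 16 and 46.9 (155 bp upstream), and the complement gene C3 had 10.0 and 22.9 (82 bp upstream). The complement gene Cfb differed in direction, with 16.7 normalized tags with TNFα and 10.7 with FSK/TNFα. Over all 24 promoter peaks the median ratio was 1.72 (range 0.641 to 4.96), and over the 248 other peaks it was 1.31.

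The matrix protease gene Adamts4 had 7.06 and 12.7 normalized tags 67 bp upstream of its start site. Besides the Cxcl1 promoter, whose values are given with the chemokines, the other promoter peaks were nearest to Gm5475, Ccnl1, Gbp5, Dclk1, Atg10, Ifitm2, Apba3, Fyb, Dlgap4, Zfp456, Mafg, Lmna, Tpbg, and Slfn2, which apart from Ccnl1 were named after their values were seen. Their levels ranged from 7.81 to 23.4 normalized tags with TNFα and from 13.7 to 63.0 with FSK/TNFα. Of the 24 promoter peaks, 16 (66.7%) held a κB consensus match, compared with 124 of the 248 others.

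The repeated peaks were nearest to 248 protein-coding genes, or 1.14% of the 21829 annotated. Of 211 annotated genes on 10 lists drawn up for inflammatory, cAMP, and adipocyte functions, 38 (18%) were nearest to a repeated peak. The lists were drawn up with earlier results of these data known, so their counts are not independent evidence. For comparison, 12.8% of all protein-coding genes and 42.2% of the listed genes were nearest to any p65 peak of FSK/TNFα cells.

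The highest share was among NF-κB subunits, inhibitors, and feedback regulators, where 8 of 19 genes (42.1%) were nearest to 10 repeated peaks. Besides the promoters above, peaks lay 2.95 kb and 38.1 kb upstream of Nfkb1 start sites, the gene for the p105 precursor of p50. The first had 31.2 normalized tags with TNFα and 27.8 with FSK/TNFα, and the other 13.0 and 25.4. Bcl3, an atypical IκB protein, had 14.9 and 18.5 normalized tags 4.26 kb upstream, and Tnip1, an A20-binding inhibitor, had 10.0 and 14.2 at 9.12 kb upstream. A distal peak 71.6 kb upstream of Tnfaip3 had 13.4 and 13.7.

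Nfkbia was reached only by a distal repeated peak, 27.6 kb downstream of its start site, with 8.18 normalized tags with TNFα and 33.2 with FSK/TNFα. At its promoter a p65 peak was called with TNFα, 98 bp upstream with 14.5 normalized tags, but the nearest peak with FSK/TNFα was 18.6 kb away. A peak under the calling threshold is not listed, so occupancy at this promoter with FSK/TNFα was not detectable rather than absent.

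Among chemokine genes, 4 of 24 (16.7%) were nearest to 8 repeated peaks. Ccl2, which encodes the monocyte attractant MCP1, had 3 upstream. The peak 2.40 kb upstream of the start site (chr11:82033094-82033256) had 32.7 normalized tags with TNFα and 37.6 with FSK/TNFα. The peak 28.6 kb upstream had 43.5 and 51.7, and the peak 19.0 kb upstream had 35.3 and 24.9.

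Cxcl5, a neutrophil attractant, also had 3 upstream peaks, at 56.3 kb, 52.9 kb, and 5.51 kb. Their levels with TNFα were 20.1, 48.7, and 14.5 normalized tags, and with FSK/TNFα they were 41.5, 40.0, and 27.8. At the Cxcl5 start site the calls did not overlap: the TNFα peak was 82 bp upstream (19.0 normalized tags) and the nearest FSK/TNFα peak was 802 bp downstream (17.1 normalized tags).

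The promoter of Cxcl1, another neutrophil attractant, had 23.8 normalized tags with TNFα and 22.4 with FSK/TNFα, 85 bp upstream of its start site (chr5:90891075-90891237). Its neighbor Cxcl2 had no repeated peak: a p65 peak 399 bp upstream was called with FSK/TNFα (10.7 normalized tags), and the nearest TNFα peak was the one at Cxcl1, 12.7 kb away. Ccl5 had a distal peak 13.6 kb upstream with 28.6 and 19.0 normalized tags.

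Cytokine genes were nearest to 7 repeated peaks in 6 of 22 genes (27.3%). Lif, an interleukin 6 family cytokine, had 26.8 normalized tags with TNFα and 32.2 with FSK/TNFα at a peak 32.9 kb downstream of its start site. Csf1, the macrophage growth factor, had 48.7 and 38.1 at a peak 15.5 kb upstream and 14.1 and 19.0 at a peak 6.83 kb downstream. Csf2, Il1a, and Inhba had peaks 20.8 kb to 104 kb from their start sites, with 13.8 to 20.4 normalized tags with TNFα and 21 to 26.8 with FSK/TNFα. Il6 had none: its nearest peaks were 18.1 kb upstream with TNFα (13.8 normalized tags) and 12.1 kb upstream with FSK/TNFα (12.2), and they did not overlap.

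Of the genes for TNF receptor signalling and survival, 5 of 29 (17.2%) were nearest to a repeated peak. Besides Sod2 these were Birc2, Ripk2, Traf2, and Cflar. Birc2, which encodes the ubiquitin ligase cIAP1, had 24.2 normalized tags with TNFα and 22.4 with FSK/TNFα at 1.19 kb upstream. Traf2, an adaptor of the TNF receptor, had 14.1 and 33.2 in an intron. The adhesion and protease list had 1 of 19 genes (Adamts4), and the interferon regulatory factor list had 0 of 12.

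Acute-phase and innate defence genes had 8 of 20 (40.0%) with 9 repeated peaks. In addition to the promoters of Saa3, Lcn2, C3, and Cfb, peaks lay 93.7 kb and 21.2 kb upstream of Tlr2, a receptor for bacterial lipoproteins, with 24.2 and 13.0 normalized tags with TNFα and 29.3 and 22.9 with FSK/TNFα. Nos2, Ptges, and Hp had peaks 5.50 kb to 33.5 kb upstream, with 10.4 to 18.2 normalized tags with TNFα and 14.2 to 23.9 with FSK/TNFα.

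Of 23 adipocyte genes, 2 (8.70%) were nearest to a repeated peak: Cebpb and Cebpd, both early factors of adipocyte differentiation that are also induced in inflammation. The peak 97.2 kb downstream of Cebpd (chr16:15984434-15984596) had the highest ratio of all, and peaks 65.2 kb and 88.7 kb downstream of Cebpb had 28.6 and 27.9 normalized tags with TNFα and 24.9 and 45.4 with FSK/TNFα. Cebpa had no repeated peak, and its nearest p65 peaks were 38.0 kb upstream with TNFα and 3061 kb away with FSK/TNFα.

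Sik1, a cAMP-induced kinase that restrains CRTC2, was the 1 gene of 20 on the cAMP list. A cluster of 3 repeated peaks lay 24.6 kb to 28.4 kb downstream of its start site, 926 bp and 2927 bp apart. With TNFα they had 27.5, 36.4, and 19.0 normalized tags, and with FSK/TNFα 22.0, 23.9, and 23.9. All 3 held a κB consensus match. The immediate-early list had 3 of 23 genes (13.0%): Junb, Klf4, and Myc, with 13.4, 20.1, and 8.92 normalized tags with TNFα and 20.5, 13.7, and 16.1 with FSK/TNFα. Ccnl1, a cyclin gene on no list, was the remaining gene with 3 repeated peaks.

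**Figure D2:**
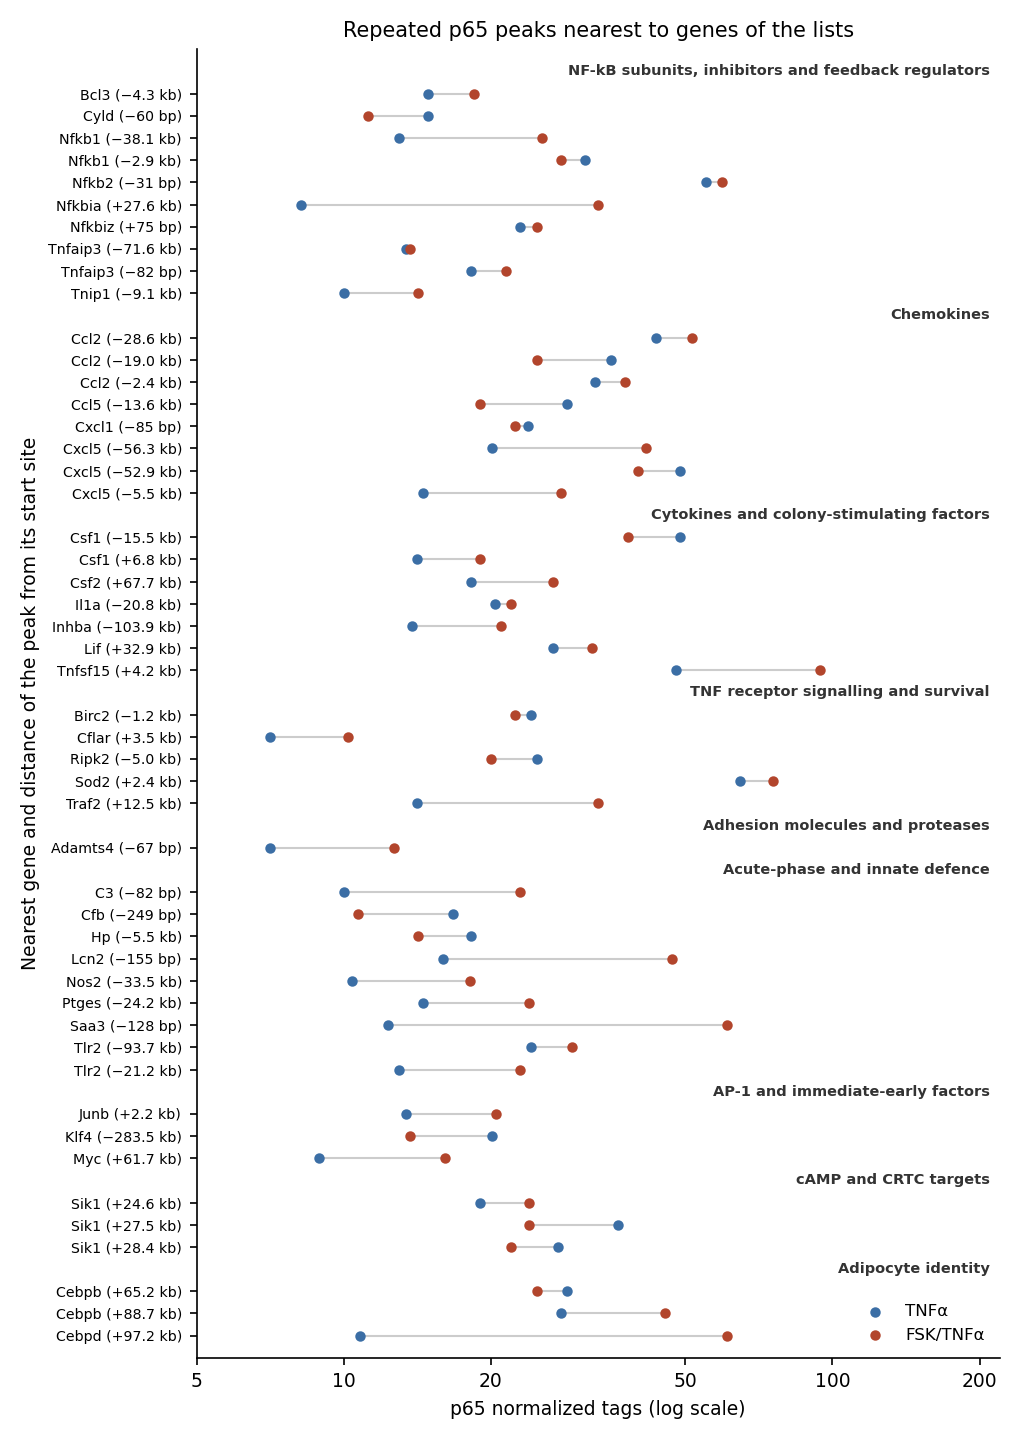
Normalized p65 tags (x axis, log scale) with TNFα (blue) and FSK/TNFα (red) at every repeated peak nearest to a gene of the lists, with the distance of the peak from the start site. Nfkb2 and Nfkbiz have nearly equal levels in both libraries, while Cebpd, Saa3, Nfkbia, and Lcn2 are 2.93 to 5.65 times higher with FSK/TNFα.

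The reference sequence of the peaks did not enter the rule. A κB consensus match was present within 200 bp around the midpoint in 140 of 272 repeated peaks (51.5%, interval 45.6% to 57.3%). The share was 9.97% among all p65 peaks of FSK/TNFα cells and 7.12% (interval 6.35% to 7.96%) among those not repeated. Windows of the same length 2 kb away held a match in 3.68% for repeated peaks and in 1.71% for all peaks. Of the TNFα peaks that were not repeated, 8.30% held one.

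Since repeated peaks had higher scores, the shares were also set side by side within 5 groups of the score with FSK/TNFα. The highest group ran from 15 to 74, so scores within a group were not always equal. The score with TNFα was not matched. Among peaks with the lowest score of 7, 16 of 37 repeated peaks (43.2%, interval 28.7% to 59.1%) held a κB match, compared with 97 of 2571 not repeated (3.77%, interval 3.10% to 4.58%). At scores of 15 and above the shares were 63.4% of 71 (interval 51.8% to 73.6%) and 23.9% of 46 (interval 13.9% to 37.9%). At scores of 11 to 14 the intervals overlapped, with 36 of 72 and 45 of 130 (34.6%). In the other 4 score groups they did not.

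**Figure D3:**
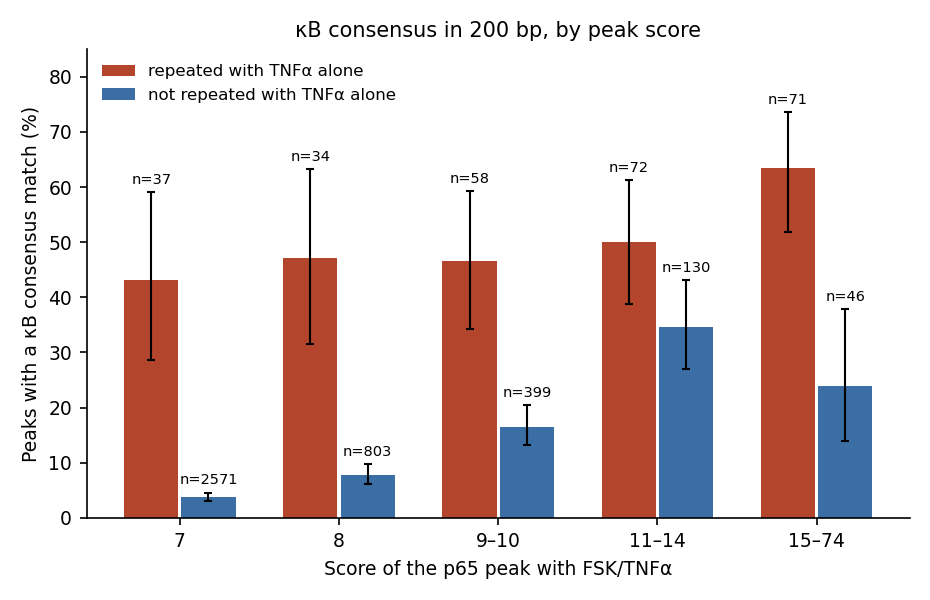
Percentage of p65 peaks with a κB consensus match in 200 bp (y axis) by the score of the peak with FSK/TNFα (x axis), for peaks repeated (red) and not repeated (blue) with TNFα alone. Bars are shares, error bars 95% Wilson intervals over peaks, and n the number of peaks; the red share runs from 43.2% to 63.4% and is above the blue in each of the 5 groups.

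The matches were concentrated at the center of the peaks. The nearest match lay a median of 21 bp from the midpoint, and 116 of 140 were within 50 bp. Repeated peaks carried 235 and 312 matches per 1000 peaks in the 50 bp on either side of the midpoint, compared with 27.9 and 34.7 in peaks not repeated. Beyond 200 bp from the midpoint repeated peaks carried 0 to 11 matches per 1000 peaks and 50 bp.

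**Figure D4:**
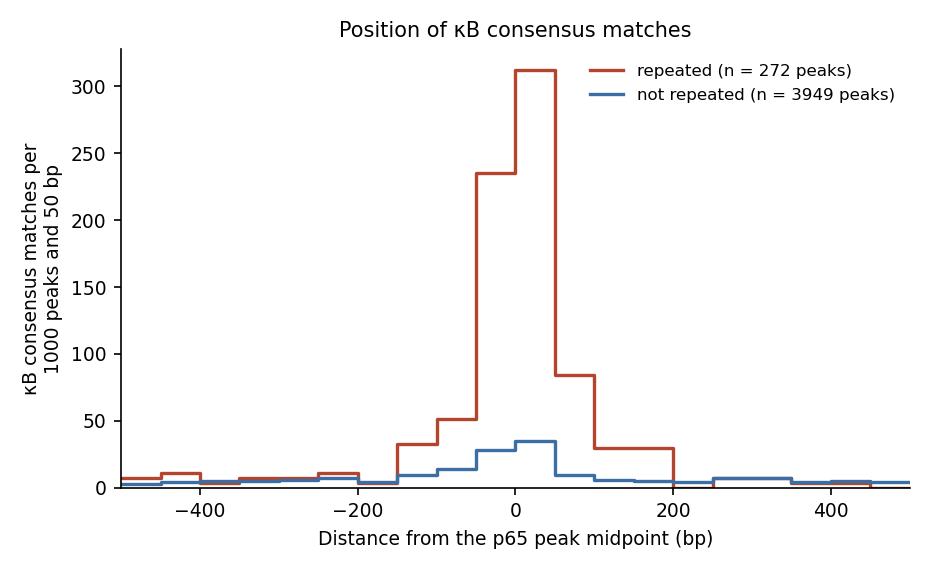
Number of κB consensus matches per 1000 peaks in bins of 50 bp (y axis) by distance from the p65 peak midpoint (x axis), for 272 repeated and 3949 not repeated peaks. Both lines rise at the midpoint, to 312 in repeated and 34.7 in not repeated peaks.

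Outside chromosome 18, 28 forms of the consensus made up 183 matches at repeated peaks. The 6 most frequent, shown as the sequences matched most often and read on the strand that fits the consensus, were the following, with 25, 19, 19, 15, 13, and 13 matches.

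Form 1: GGGGAATTCC
Form 2: GGGACTTTCC
Form 3: GGGGATTTCC
Form 4: GGGAAATTCC
Form 5: GGGAATTCCC
Form 6: GGGAATTTCC

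The same forms made up 32, 25, 31, 25, 8, and 25 of 328 matches at peaks that were not repeated. Forms 5 and 6 were each 7.10% of the matches at repeated peaks, and they were 2.44% and 7.62% of the others. The NF-κB motif named in the study was stricter: 25 repeated peaks held it (9.19%, interval 6.30% to 13.2%), compared with 1.56% of all p65 peaks and 1.04% (interval 0.766% to 1.41%) of those not repeated. When 1 mismatch in the κB consensus was allowed, an alternative added after the data were seen, 80.5% of repeated peaks and 27.3% of the others held a match, with 23.9% in windows 2 kb from repeated peaks. Sod2, Cp, Saa3, C3, and the distal Nfkbia and Cebpd peaks held no exact match.

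Motifs of other factors were searched in the same windows on both strands. An AP1 site (TGACTCA or TGAGTCA), bound by Fos and Jun dimers, was present in 62 repeated peaks (22.8%, interval 18.2% to 28.1%), in 8.81% of all p65 peaks, and in 7.85% (interval 7.05% to 8.73%) of those not repeated. A C/EBP site (TTGCNNAA) was present in 23.9% (interval 19.2% to 29.3%), compared with 13.1% of all and 12.4% (interval 11.4% to 13.4%) of those not repeated. In windows 2 kb away from repeated peaks these shares were 2.57% and 6.99%. An AP1 site was found in 28.0% of 132 repeated peaks without a κB match and in 17.9% of 140 with one, and a C/EBP site in 28.8% and 19.3%.

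A CRE half-site (TGACG), bound by CREB, the partner of CRTC2, was present in 28 repeated peaks (10.3%, interval 7.22% to 14.5%), in 6.11% of all p65 peaks, and in 5.82% (interval 5.14% to 6.60%) of those not repeated. The share in windows 2 kb from repeated peaks was 5.15% (interval 3.09% to 8.45%), whose interval overlaps that of the peaks. None of the 5 motifs was found in 54 repeated peaks (19.9%). The same count was not made over all p65 peaks of FSK/TNFα cells, so this share has no comparison.

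CRTC2 is held in the cytoplasm until cAMP releases it to bind CREB on DNA. A CRTC2 peak of FSK/TNFα cells overlapped 125 repeated peaks (46.0%, interval 40.1% to 51.9%), compared with 11.3% of all p65 peaks and 8.89% (interval 8.04% to 9.82%) of those not repeated. With FSK alone the share of repeated peaks was 25.7% (interval 20.9% to 31.2%), and it was 7.58% of all. With TNFα alone it was 15.1% (interval 11.3% to 19.8%), and it was 4.48% of all. In control cells CRTC2 was called at 4 repeated peaks (1.47%) and at 0.900% of all. The CRTC2 lists differ in length and depth, so shares are compared between groups of p65 peaks within a list and not between treatments.

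CRTC2 calls also varied with the p65 score. Among repeated peaks CRTC2 of FSK/TNFα cells was called at 21.6% of those with a p65 score of 7 and at 64.8% of those scoring 15 or more. Among peaks not repeated the shares were 4.78% and 41.3%. The p65 level ratio had the same median with and without CRTC2. It was a median of 1.31 at the 125 repeated peaks with a CRTC2 peak (quartiles 0.942 and 1.91) and of 1.31 at the 147 without (quartiles 0.971 and 1.80).

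The co-bound repeated peaks with the highest CRTC2 level lay downstream of Cebpb (112.2 normalized tags with FSK/TNFα, the 88.7 kb peak) and of Dnajb6 (67.0), which was named after its values were seen. The CRTC2 peaks at Lif (58.8), in the Tnfsf15 intron (58.5), and at the Cxcl1 promoter (54.7) followed. The Tnfsf15 site had a dense input (9.19 tags) and lay in no H3AcK27 region. The part of this input in its CRTC2 level was not tested. The Cxcl1 promoter also had CRTC2 peaks with FSK (59.0 normalized tags) and with TNFα (87.6), and Lif had them with 29.2 and 11.3. At Cebpb, Tnfsf15, and Sod2 a CRTC2 peak was called with FSK/TNFα but not with FSK or TNFα alone, as it was at 62 repeated peaks in all (22.8%). The same count was not made over all p65 peaks. The CRTC2 library of FSK/TNFα cells was also the deepest, with 31807394 tags, compared with 16438040 with FSK and 26472345 with TNFα. The promoters of Saa3 and C3 had no CRTC2 peak in any library.

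CRE half-sites went with CRTC2 among the repeated peaks. They were found in 21 of 125 peaks with a CRTC2 peak of FSK/TNFα cells (16.8%) and in 7 of 147 without (4.76%). With CRTC2 of FSK cells the shares were 19 of 70 (27.1%) and 9 of 202 (4.46%). AP1 sites were found in 27.2% and 19.0% and κB matches in 46.4% and 55.8% of repeated peaks with and without CRTC2 of FSK/TNFα cells. These shares were not tested.

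Most repeated peaks lay in acetylated chromatin in control cells as well. An H3AcK27 region of control cells overlapped 237 of 272 (87.1%, interval 82.6% to 90.6%), compared with 34.1% of all p65 peaks and 30.4% (interval 29.0% to 31.9%) of those not repeated. The shares of repeated peaks were 76.8% with FSK, 93.8% with TNFα, and 88.2% with FSK/TNFα, beside 29.0%, 36.2%, and 31.8% of all p65 peaks. The FSK library was the shallowest of the H3AcK27 libraries, with 9832884 tags. At a p65 score of 7, 89.2% of 37 repeated peaks and 24.6% of 2571 others lay in a region of TNFα cells.

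**Figure D5:**
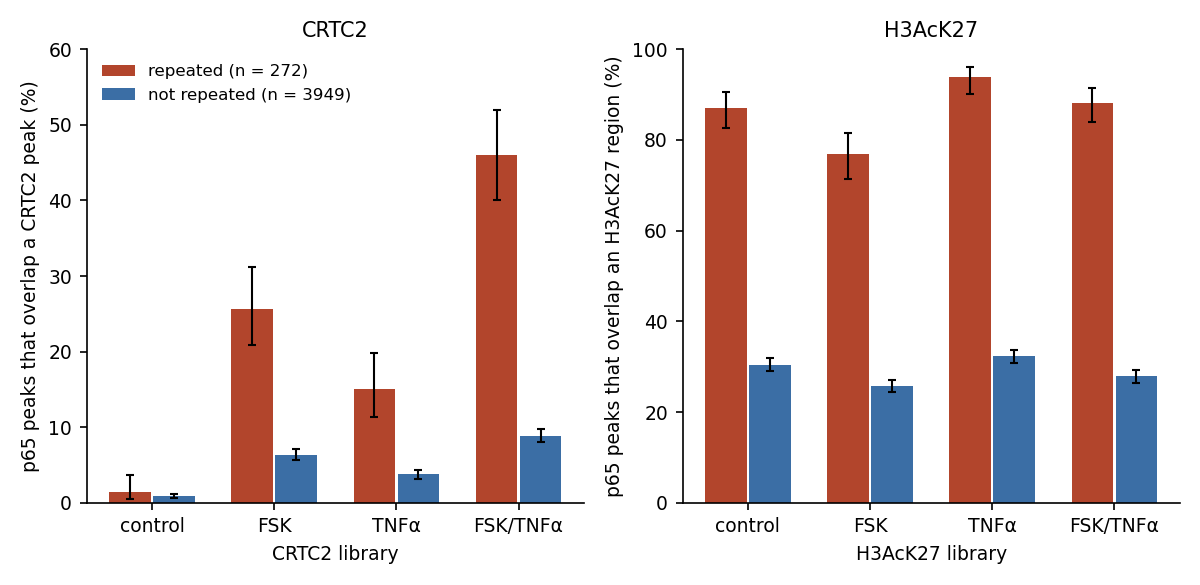
Percentage of repeated (red) and not repeated (blue) p65 peaks of FSK/TNFα cells (y axes) that overlap a CRTC2 peak (left, axis to 60%) or an H3AcK27 region (right, axis to 100%) of each library (x axes). Error bars are 95% Wilson intervals over peaks; the CRTC2 share of repeated peaks reaches 46.0% with FSK/TNFα, and the H3AcK27 share is between 76.8% and 93.8% in all 4 libraries.

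Where a region was called in both control and TNFα cells, the H3AcK27 density (normalized tags per kb of region) was higher with TNFα at 209 of 236 repeated peaks (88.6%), with a median ratio of 1.26. At peaks not repeated it was higher at 71.1% of 1137, with a median ratio of 1.13. With FSK/TNFα the median ratios over control were 1.11 and 1.10, and with FSK 0.980 and 1.07. These comparisons share the control library, and 1 region can hold several p65 peaks. At the Sod2 peak the density was 65.5 normalized tags per kb in the control library, 76.5 after FSK, 134.5 after TNFα, and 143.8 after FSK/TNFα. At Lcn2 the density stayed between 69.7 and 75.2, while the region was 5.59 kb wide in control cells and 15.3 kb wide with TNFα.

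At 19 repeated peaks (6.99%) an H3AcK27 region was called with TNFα but not in control cells, and at 1 the reverse. The same count was not made over all p65 peaks of FSK/TNFα cells. Of those, 36.2% lay in a region of TNFα cells and 34.1% in a region of control cells. Of the 19 repeated peaks, 7 were also called with FSK/TNFα and not with FSK: the peaks near Ets2 (130 kb downstream), Rpl3, Wars2, 9330182O14Rik, Myh13, and Slc35c1, and the Cfb promoter. They were named after their values were seen. The Cfb region had 27.7 normalized tags per kb with TNFα and 27.9 with FSK/TNFα, and the Ets2 region 31.5 and 27.4. At 13 repeated peaks (4.78%) no library had a region, compared with 60.4% of all p65 peaks of FSK/TNFα cells.

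Few repeated peaks overlapped a p65 peak called in cells without TNFα, where the score limits of the lists were unequal. The lowest listed score was 12 in control cells and 7 in FSK cells. A p65 peak of FSK cells overlapped 25 repeated peaks (9.19%, interval 6.30% to 13.2%), compared with 1.11% of all p65 peaks of FSK/TNFα cells and 22 of 3949 not repeated (0.557%, interval 0.368% to 0.842%). These 25 were 0.842% of the 2969 p65 peaks of FSK cells. At them the level had a median of 17.2 normalized tags with FSK (range 8.42 to 30.1), 25.6 with TNFα, and 32.2 with FSK/TNFα. The 3 levels were 28.1, 17.5, and 76.6 in an intron of Acacb, which encodes an acetyl-CoA carboxylase, and 15.2, 64.7, and 75.6 in Sod2. The Acacb peak lay 2.78 kb upstream of the nearest Acacb start site, which is inside the gene.

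In control cells p65 was called at 6 repeated peaks (2.21%, interval 1.01% to 4.73%), at 0.142% of all p65 peaks of FSK/TNFα cells, and at 0 of 3949 not repeated, for which the interval reaches 0.0972%. They lay at the Nfkb2 promoter (6.41 normalized tags in control cells), at Junb (6.04), and in the Acacb intron (6.41). The others lay downstream of Cebpb (10.6), Ets2 (6.04), and Snx18 (5.28). At each the normalized tags were higher with TNFα, from 13.4 at Junb to 55.0 at Nfkb2. By score this did not hold at Junb, which scored 9 with TNFα, while no listed control peak scored under 12. All 6 peaks were also chosen for being called with TNFα. The TNFα list reached down to a score of 8, and repeated peaks had a median score of 10 in it. Both are under 12, so many repeated peaks would miss the control list even at their TNFα score. The 6 calls therefore do not show how many repeated peaks were occupied in control cells.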

How the data were processed

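ChIP-seq peak lists of p65, CRTC2, and H3AcK27 were used for 4 treatments, with 1 library each and 12 lists in all. The submitters' processing notes name STAR, HOMER, and mm10, and versions are not given in the sources used here. HOMER was run by the authors on 1 library at a time, with untreated input for the control and TNFα libraries and FSK input for the others. They kept p65 and CRTC2 peaks at least 4-fold over the input and over the surrounding 10 kb, at an FDR of 0.001. The deposited signal of a peak is its tags scaled to 10000000 tags per library. The deposited score counts at most 1 tag per position. The deposited fold over input is a ratio of scaled tags.

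Samples were grouped by their labels. An overlap of 1 bp or more counted as sharing. Input tags were obtained as normalized tags divided by the fold. Coordinates were read as GRCm38, where 0 of 243429 peaks ran past a chromosome end, with GENCODE mouse release 21. Motifs were matched exactly in 200 bp on both strands. A nearest gene is that of the closest protein-coding start site. The genes named were those nearest the 12 best-ranked peaks, genes of the 10 lists with a repeated peak, genes with 3 or more repeated peaks, and Cxcl1, Cxcl2, Cxcl5, Ccl2, Il6, Lif, and Cebpa, and any other is said to be named after its values were seen. The members, lists, and named genes were chosen with earlier results of these data known. Depth was 9832884 to 31807394 tags per library, and a peak under the threshold of a list is not listed. Alternatives covered the overlap rule, enrichment, list length, chromosomes, motif window, promoter extent, gene type, and counting unit, and 1 was added after the data were seen. The code was tested on simulated data, where 300 of 300 planted overlaps were found. Python 3.11.15, numpy 2.4.6, scipy 1.17.1, and pysam 0.24.0 were used. Sequencing reads were not analysed here.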

Additional observations from a re-analysis of the deposited data

How the results depend on the processing

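With 1 library per treatment no replicate could be left out. No paired analysis was possible because each group held 1 sample and no result came from a test. Of 138 recomputed values, 121 stayed within the 95% interval of the share, or within 1.5 times the count or median, and 17 moved. Requiring at least 8-fold over input left 167 repeated peaks nearest to 158 genes, and the shares with a CRTC2 peak became 15% with FSK, 10.8% with TNFα, and 34.7% with FSK/TNFα. With CRTC2 and p65 midpoints within 500 bp these shares were 27.2% with TNFα and 55.9% with FSK/TNFα. With H3AcK27 lists of equal length, 78.3% of repeated peaks lay in a region of control cells and 83.1% in a region of TNFα cells. In a motif window of 100 bp the shares were 41.2% for the κB consensus, 10.7% for AP1, 15.8% for C/EBP, and 5.15% for the CRE half-site. In a window of 400 bp they were 29.4% for AP1, 34.6% for C/EBP, and 16.5% for the CRE half-site. With 1 mismatch the κB consensus share was 80.5%. Among peaks not repeated the κB consensus share was 5.01% in 100 bp and 27.3% with 1 mismatch. The remaining shares in this paragraph are given for repeated peaks only, so they do not show the contrast with other p65 peaks. Wider windows and looser matches find more by construction, and other causes were not tested. The depth of each list sets which weak peaks are called, so a missing overlap does not show missing occupancy.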

Other observations

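Chromosome 11 held 38 of the 272 repeated peaks (14.0%), compared with 8.28% of the p65 peaks not repeated and 8.83% of the CRTC2 peaks of FSK/TNFα cells. Chromosome 3 held 12.5% of repeated peaks, 16.4% of those not repeated, 19.8% of TNFα peaks not repeated, and 25.7% of the p65 peaks of control cells, while it held 5.49% of the H3AcK27 regions of FSK/TNFα cells. The X chromosome held 0 repeated peaks and 1.72% of those not repeated.

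Repeated peaks lay close to each other at few places. Of 272, 8 neighboring pairs were within 20 kb. The closest were at Sik1 (926 bp and 2927 bp), Kdm6b (1353 bp), and Cxcl5 (3393 bp), followed by pairs at Ccl2, Zfp827, and Emc2. Kdm6b encodes a histone demethylase. The Kdm6b, Zfp827, and Emc2 pairs were named after their values were seen.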
